A study of Homo sapiens with 4 samples.

Results

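The TSC22D family and a set of glucocorticoid-inducible genes were followed in U937, an established human cell line that resembles immature monocytes, after ultrasound with or without Sonazoid, a contrast agent of gas-filled microbubbles. The 8 genes were TSC22D1, TSC22D2, TSC22D3, TSC22D4, SGK1, FKBP5, PER1 and NR3C1. All but PER1 were among the 19775 genes that had a probe set of their symbol alone on the Affymetrix Human Genome U133 Plus 2.0 array. The set was chosen on measured values of these arrays, because TSC22D3 and SGK1 were higher after ultrasound. Their ultrasound differences are therefore given as a description. There were 4 groups of 1 array each. They were untreated control cells, cells given 0.05% Sonazoid, cells exposed for 1 min to ultrasound of 0.3 W/cm2, and cells given both, here called the combination. All 3 treated groups were kept for 3 h at 37°C before RNA was taken, while the labels name no such time for the control cells. No group was labelled as given a glucocorticoid. With 1 array per group no difference has a replicate check, and no test between groups was made.

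Glucocorticoids act through NR3C1, the glucocorticoid receptor, a cytoplasmic protein held by chaperones that moves to the nucleus when it binds hormone and there switches genes on or off. TSC22D3 encodes GILZ, the glucocorticoid-induced leucine zipper protein, which dampens inflammatory signalling in monocytes and macrophages, and it is also a known target of FOXO factors. SGK1 encodes a serine/threonine kinase of the AGC family that is activated downstream of phosphoinositide 3-kinase and whose mRNA is short-lived and responds to hormones, osmotic change and other stresses. FKBP5 encodes a co-chaperone that lowers the hormone affinity of the receptor, and PER1 a repressor of the circadian clock. Both are widely used as readouts of receptor activity. The other TSC22D genes encode proteins that share the leucine zipper region and bind each other and the pseudokinase NRBP1.

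Sequences upstream of the start sites are shown for TSC22D3 and SGK1, which were higher after ultrasound, and for FKBP5, which stayed close to control. They are RefSeq windows of assembly GRCh38.p14, each with the 250 bases before an annotated start site, 5′ to 3′ on the gene's strand, which is the minus strand for all 3. The capitals mark matches to any motif searched.

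TSC22D3, chrX:107717063-107717312: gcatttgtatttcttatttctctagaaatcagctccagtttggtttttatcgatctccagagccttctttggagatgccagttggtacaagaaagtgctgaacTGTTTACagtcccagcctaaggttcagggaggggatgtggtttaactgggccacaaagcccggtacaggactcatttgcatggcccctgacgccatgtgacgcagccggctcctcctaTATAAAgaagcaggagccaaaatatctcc
SGK1, chr6:134174867-134175116: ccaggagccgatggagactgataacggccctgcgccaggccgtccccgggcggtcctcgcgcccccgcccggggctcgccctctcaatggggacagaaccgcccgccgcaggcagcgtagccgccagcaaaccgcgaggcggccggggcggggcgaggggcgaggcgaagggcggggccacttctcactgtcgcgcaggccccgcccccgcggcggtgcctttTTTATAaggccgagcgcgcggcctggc
FKBP5, chr6:35688916-35689165: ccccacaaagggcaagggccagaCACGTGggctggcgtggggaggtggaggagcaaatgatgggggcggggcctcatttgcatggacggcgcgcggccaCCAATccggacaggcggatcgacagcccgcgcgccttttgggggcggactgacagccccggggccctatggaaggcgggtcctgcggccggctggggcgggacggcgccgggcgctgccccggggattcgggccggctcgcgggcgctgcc

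The motifs, searched on both strands, were the half-site AGAACA of the glucocorticoid response element, the full element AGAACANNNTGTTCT that contains it, the FOXO element TGTTTAC, the AP-1 element TGACTCA, the cyclic AMP response element TGACGTCA, the TATA box TATAAA, the E-box CACGTG and the CCAAT box CCAAT. The TSC22D3 window held a FOXO element from 147 to 141 bases before the start site and a TATA box from 29 to 24 bases before it. A FOXO element was in 2.98% of the 35116 windows of this length in the table, and a TATA box in 10.7%. The other 3 TSC22D3 windows held no match. The SGK1 window above held the TATA box letters on the opposite strand, 27 to 22 bases before its start, and the other 2 SGK1 windows held matches to the TATA box only. The FKBP5 window held an E-box, found in 6.34% of all windows, and a CCAAT box, found in 32% of them.

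The table held 23 windows of 7 of the genes and none of TSC22D2. The half-site, present in 12.4% of all windows, was in 1 of these 23, at TSC22D1, and the full element, present in 0.00285%, in none of them. The AP-1 element (4.2% of all windows) was in the same TSC22D1 window, and the cyclic AMP response element (1.65%) was in none of the 23. The FOXO element seen in the TSC22D3 window was also in an NR3C1 window, from 59 to 53 bases before its start site. A match describes letters in these 250 bases and is not a binding site. The lack of a match says only that these letters are not in the window.

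The signals are linear intensities per probe set, multiplied by 1 factor per array so that the arrays shared a common trimmed mean. Values under the median of all values, 23.8, carry little information and were set to it, here called the floor. Where 1 array of a pair lay under the floor, the difference is only a bound, written as "at least". A probe set counted as called at a 2-fold or larger difference. The 7 genes other than PER1 had 24 probe sets of their symbol alone, of which 14 lay above the floor on all 4 arrays, 17 on at least 1 array and 7 on none. The 4 PER1 probe sets are annotated jointly to PER1 and the microRNA gene MIR6883, so they are described apart and enter no count. The levels of different probe sets are not compared with each other, since each has its own binding strength.

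Each ultrasound difference was measured in a pair of comparisons that share no array. One was ultrasound only against control and the other was the combination against Sonazoid only. In ultrasound only against control 3 of 17 measured member probe sets were called higher and 0 lower, where 1.59% of all probe sets of 1 gene were called higher and 1.03% lower. In the combination against Sonazoid only 3 of 17 were called higher and 1 lower, against 1.54% and 0.815% of all. The same 3 were higher in both, namely both above-floor probe sets of TSC22D3 and the SGK1 probe set, against 0.407% of all probe sets, and 2 of 11 member probe sets over 100 on all 4 arrays were, against 0.271% of all such probe sets. Since the contrast itself chose these genes, the excess over the background is no result. The gap between the 2 ultrasound differences of a probe set is the closest these arrays come to a repeat measurement, although a true effect of Sonazoid on the response would also enter it. Among probe sets above the floor on all 4 arrays, its median size was 0.42 (log2) for a mean signal up to 100. It was 0.25 from 100 to 300, 0.16 from 300 to 1000 and 0.10 above 1000.

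TSC22D3 was several-fold higher on both arrays with ultrasound. Its brightest probe set, 208763_s_at, had a signal of 380 in control, 369 under Sonazoid alone, 2536 under ultrasound alone and 2384 after both. The pair of arrays without ultrasound were low and close to each other, and the pair with ultrasound were high and close to each other. Ultrasound only was 6.67-fold above control (log2 2.74) and the combination was 6.46-fold above Sonazoid only (log2 2.69), a gap of -0.05.

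The second TSC22D3 probe set, 207001_x_at, gave 99.5 in control, 78.5 under Sonazoid alone, 442 under ultrasound alone and 431 after both. Its differences were 4.44-fold without Sonazoid and 5.49-fold with it, and the gap of 0.31 (log2) lay near the median gap of its signal range, 0.25. The suffixes of both probe sets mark probes that may match more than 1 transcript. The third, 235364_at, is gene-specific by its suffix and lay below the floor on all 4 arrays, between 2.32 and 19.3, so it gave no difference. By the mean of the 2 ultrasound differences, the first and second probe sets ranked 11 and 13 of 19648 probe sets above the floor on all arrays.

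SGK1 was more modestly higher. Its only probe set, 201739_at, had a signal of 260 in control, 294 under Sonazoid alone, 565 under ultrasound alone and 715 after both. The lower of the arrays with ultrasound stood well above the higher of the arrays without it. The ultrasound difference was 2.18-fold without Sonazoid (log2 1.12) and 2.43-fold with it (log2 1.28), and it ranked 73 by their mean. The gap of 0.16 (log2) equalled the median gap of its signal range. The combination was 1.27-fold above ultrasound only and Sonazoid only was 1.13-fold above control, both under 2-fold.

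**Figure D1:**
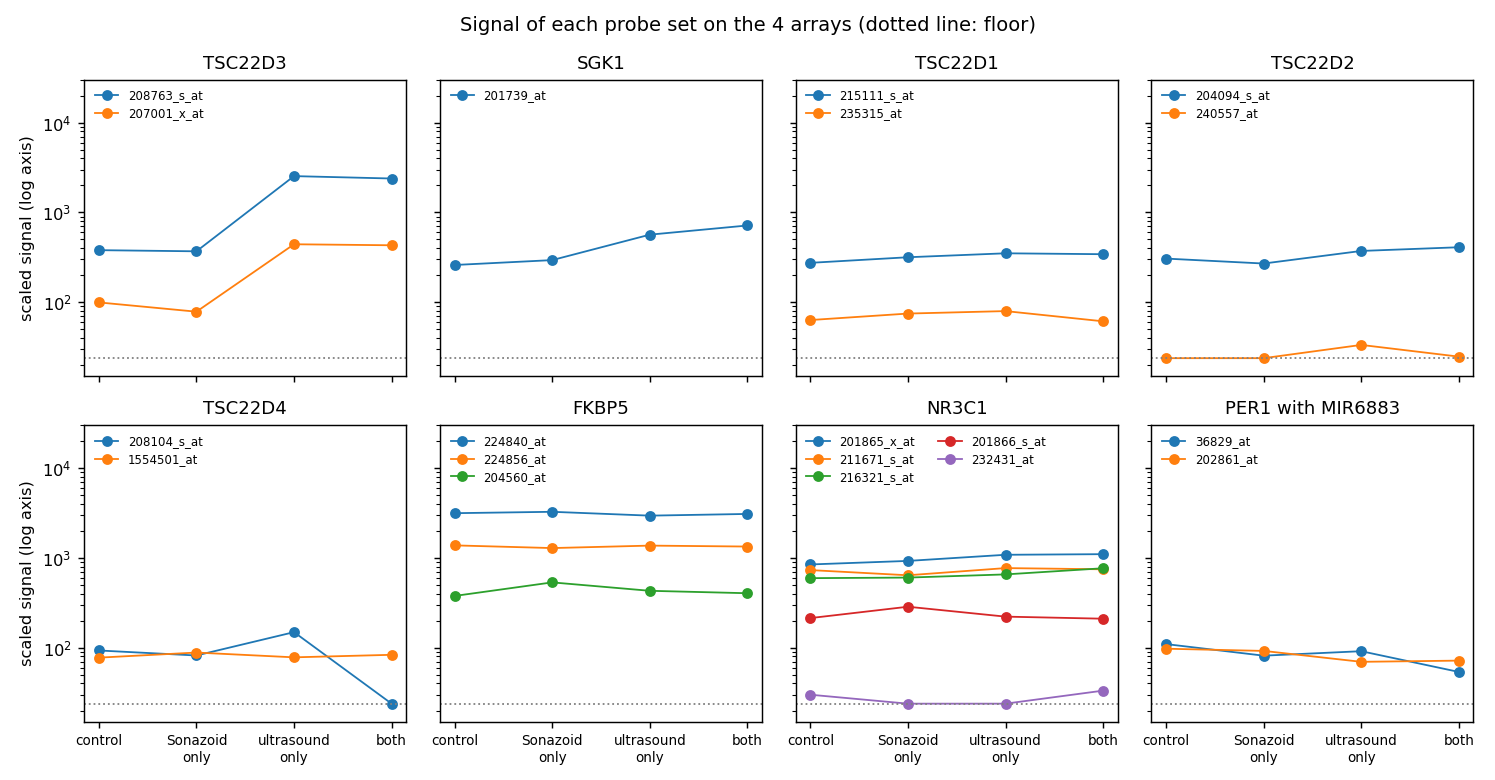
Scaled signal (log axis) of each probe set above the floor on at least 1 array, by gene and array, 1 array per group (the combination is marked both), with values under the floor of 23.8 (dotted line) drawn at it and lines joining the arrays as a guide only. TSC22D3 and SGK1 are high on the 2 arrays with ultrasound, while FKBP5 and NR3C1 stay nearly level and 1 of 2 TSC22D4 probe sets drops to the floor in the combination.

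No other TSC22D gene was called higher in any comparison. TSC22D1, a transforming growth factor beta-stimulated member of the family, had signals of 274 in control, 317 under Sonazoid alone, 351 under ultrasound alone and 343 after both by its brightest probe set, 215111_s_at. Control was the lowest of these 4 arrays, and the other 3 lay within a narrow range. The ultrasound differences were 1.28-fold and 1.08-fold. Its second probe set, 235315_at, ranged from 61.3 to 79.7, and its ultrasound differences had opposite signs (log2 0.33 and -0.29). The remaining 2 TSC22D1 probe sets were below the floor throughout.

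TSC22D2 stood at 306 in control, 270 under Sonazoid alone, 372 under ultrasound alone and 409 after both by 204094_s_at. Both arrays with ultrasound lay above both arrays without it, by 1.22-fold without Sonazoid and 1.52-fold with it. The gap between these differences was 0.32 (log2), where the median gap of that signal range was 0.16. Of its other 5 probe sets 4 were below the floor on all arrays, and 240557_at reached 33.5 with ultrasound only and stayed under 25 on the others.

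The 2 probe sets of TSC22D4 differed from each other. The gene-specific one, 1554501_at, was level at 77.6 in control, 88.4 under Sonazoid alone, 78.2 under ultrasound alone and 83.4 after both. The other, 208104_s_at, stood at 93.2, 82.0 and 149 on the first 3 arrays and just below the floor, at 23.3, in the combination. This single array made it the only one of the 24 counted member probe sets called lower in any comparison. It was at least 3.44-fold below Sonazoid only, at least 3.91-fold below control and at least 6.26-fold below ultrasound only. The gene-specific probe set differed by log2 0.11 between the combination and control, so 1 of 2 probe sets showed the drop.

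FKBP5, the co-chaperone often read as a sign of receptor activity, was expressed well above the floor and was called in no comparison. Its brightest probe set, 224840_at, gave 3147 in control, 3261 under Sonazoid alone, 2955 under ultrasound alone and 3087 after both. These 4 values lay within a narrow range, and the ultrasound differences were log2 -0.09 and -0.08, the second of which was slightly positive with the values as deposited. The probe set 224856_at ranged from 1287 to 1379, with ultrasound differences of -0.01 and 0.06, the first of which turned sign under quantile normalization. The third, 204560_at, was highest with Sonazoid only, at 534, and between 377 and 430 on the other arrays. Its ultrasound differences were log2 0.19 without Sonazoid and -0.40 with it. Its 1.42-fold difference of Sonazoid only from control was not seen by the brighter probe sets (1.04-fold and, in the other direction, 1.07-fold).

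NR3C1, the receptor, was also expressed and was called in no comparison. Its brightest probe set, 201865_x_at, gave 846 in control, 926 under Sonazoid alone, 1083 under ultrasound alone and 1101 after both. The arrays with ultrasound were higher, by 1.28-fold and 1.19-fold. The probe set 216321_s_at followed the same order of groups, from 595 in control to 767 in the combination, with ultrasound differences of log2 0.14 and 0.34. The probe set 211671_s_at ranged from 641 to 770 with differences of 1.05-fold and 1.17-fold. The fourth, 201866_s_at, was highest with Sonazoid only, at 286, and between 210 and 222 on the other arrays. Its ultrasound differences had opposite signs, log2 0.05 without Sonazoid and -0.44 with it. The dim probe set 232431_at lay between 20.3 and 33.3.

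None of the 4 probe sets annotated to PER1 with MIR6883 was called higher after ultrasound. The probe set 202861_at gave 97.5 in control, 92.2 under Sonazoid alone, 69.7 under ultrasound alone and 71.9 after both, so both arrays with ultrasound were lower, by 1.40-fold without Sonazoid and 1.28-fold with it. The probe set 36829_at gave 110 in control, 81.6 under Sonazoid alone, 91.5 under ultrasound alone and 53.8 after both. The combination was 2.04-fold below control there (log2 -1.03), which meets the 2-fold rule although these probe sets enter no count. With the values as deposited that difference was -0.86. By 202861_at the combination was 1.36-fold below control. The other 2 were below the floor throughout.

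**Figure D2:**
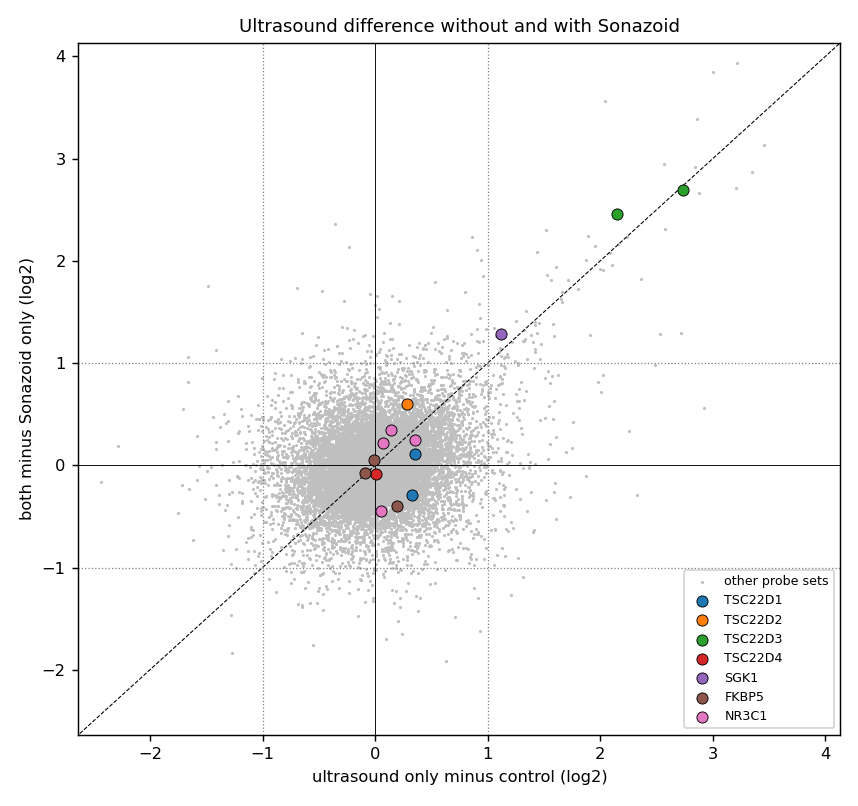
Ultrasound difference (log2) without Sonazoid on the horizontal axis and with Sonazoid on the vertical axis for probe sets above the floor on all 4 arrays, with 14 member probe sets coloured by gene, all others grey, dotted lines at 2-fold and a dashed line of equality. The 2 TSC22D3 probe sets and the SGK1 probe set lie past 2-fold on both axes near the dashed line, and the other 11 lie inside 2-fold.

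Sonazoid without ultrasound gave no called member. Of 16 measured member probe sets 0 were called higher and 0 lower, where 0.724% and 0.839% of all probe sets were called. At such shares 16 probe sets hold few calls or none, so these counts of 0 are no result about the members. The median of the members was log2 0.04, and that of all measured probe sets was 0.00. In the combination against ultrasound only 0 of 17 were called higher, against 1.03% of all, which is likewise no result. In that comparison 1 was called lower, the TSC22D4 probe set above, against 1.28% of all. TSC22D3 differed there by log2 -0.09 and -0.04, both positive with the values as deposited. In the combination against control 3 of 17 were called higher and 1 lower, against 1.42% and 0.984% of all. TSC22D3 was 6.28-fold and 4.33-fold higher and SGK1 2.75-fold. This comparison shares its control array with ultrasound only against control, so the calls are not independent of those above.

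Other genes known to be induced by glucocorticoids were taken as a list of 26, all on the table, of which 22 were above the floor on at least 1 array. In ultrasound only against control 4 of 21 measured were called higher and 0 lower, and the list median was log2 0.31. Over all genes, each by its brightest probe set, 1.65% were called higher and 0.721% lower, and the median was 0.02. In the other ultrasound comparison 4 of 20 were higher and 0 lower, with a median of 0.41, against 1.46% and 0.711% of all genes. In the combination against control 5 of 21 were higher and 0 lower, against 1.39% and 0.872%. The list was drawn up with earlier results of these arrays known, and several of its members were known to be higher.

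The 4 genes called in both ultrasound comparisons were RGS2, DUSP1, ANXA1 and DDIT4. RGS2, which shortens signals of G protein-coupled receptors, gave 91.7 in control, 72.3 under Sonazoid alone, 543 under ultrasound alone and 557 after both. DUSP1, a phosphatase that switches off stress-activated MAP kinases, gave 80.8, 73.2, 296 and 295 on the arrays in the same order. Annexin A1 (ANXA1), a mediator of the anti-inflammatory action of glucocorticoids, gave 2013, 1949, 6326 and 6005. All 3 had low and similar values on the pair of arrays without ultrasound. DDIT4, an inhibitor of mTORC1 that was named after its values were seen, was 3.16-fold higher without Sonazoid and 3.03-fold with it. FPR1, a formyl peptide receptor also named after its values were seen, was the other gene called against control in the combination, at least 2.14-fold higher from below the floor. FPR1 stood at 16.2 in control, 44.8 under Sonazoid alone, 24.3 under ultrasound alone and 51.0 after both. Its ultrasound differences were at least log2 0.03 without Sonazoid and 0.19 with it. It was also called in the combination against ultrasound only, 2.10-fold higher.

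No other gene of the list was called in either ultrasound comparison. Genes under the floor on 1 array of a pair gave only a bound, and those under it on both gave no difference. ZFP36, an mRNA decay factor, and THBD, thrombomodulin, both chosen here after their values were seen, were 1.98-fold and 1.93-fold higher with ultrasound only. PER2, a clock repressor like PER1, differed by 1.05-fold and 1.14-fold. CD163, the haemoglobin scavenger receptor of macrophages that glucocorticoids strongly induce, and IL1R2, a decoy receptor, lay below the floor on all arrays by the brightest probe set. With gene-specific probe sets alone 2 of 12 measured genes were called higher in ultrasound only against control, where 1.64% of all genes were. They were 2 of 12 in the combination against Sonazoid only and 2 of 13 in the combination against control, where 1.46% and 1.44% of all genes were.

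Of 14 inflammatory genes that glucocorticoids repress, 12 were on the table and 9 were above the floor on at least 1 array. None was called lower in any of the 5 comparisons, where 0.711% to 1.16% of all genes were. At such shares a list this short holds few calls or none, so the lack of lower calls is no result about these genes. Of 8 measured in ultrasound only against control 1 was called higher, with a median of log2 0.28, beside 1.65% and a median of 0.02 over all genes. Between the combination and Sonazoid only 1 of 9 was higher, with a median of 0.31, beside 1.46% and a median of 0.00. Gene-specific probe sets measured 2 and 4 genes of the list in these comparisons and called 0 higher, and the median of the former was -0.09. TNF, a cytokine of activated monocytes, stood at 120 in control, 111 under Sonazoid alone, 265 under ultrasound alone and 206 after both. The chemokine CXCL2 stood at 84.5, 57.2, 164 and 206 in the same order, so both were higher on the arrays with ultrasound. PLAUR, the urokinase receptor, was 1.41-fold and 1.37-fold higher. The gene called was TNF without Sonazoid (2.21-fold) and CXCL2 with it (3.60-fold), so no gene of the list was called in both. Of the 8 and 9 measured, 6 and 8 lay above 0. IL1B, a cytokine named after its values were seen, was lower in both comparisons, by log2 -0.28 and -0.36.

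Chaperones and cofactors of the receptor were next. Of 19 listed genes 15 were on the table, and 13 were measured in ultrasound only against control. There 0 were called either way, with a median of 0.01, where 1.65% of all genes were called higher and 0.721% lower. With Sonazoid present the median of 12 measured was 0.03, again with 0 called, beside 1.46% of all genes higher and 0.711% lower. At such shares a list this short holds few calls or none, so the counts of 0 are no result about these genes. The genes farthest from 0 were the coactivator NCOA1 (log2 0.68 and 0.11), the phosphatase PPP5C (0.21 and 0.29) and the cyclophilin PPID (-0.26 and -0.01), the first value in each case without Sonazoid and the second with it. HSD11B1, which regenerates cortisol from cortisone, did not exceed 23.9, and NR3C2, the mineralocorticoid receptor, was below the floor on all arrays.

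Partners of the TSC22D proteins and the WNK kinase pathway, which controls cell volume, had 7 of 8 genes on the table and 5 measured. Of these 0 were called, with medians of -0.13 and -0.02 in the same pair of comparisons. Over all genes 1.65% were called higher and 0.721% lower without Sonazoid, and 1.46% and 0.711% with it. NRBP1, the pseudokinase that binds TSC22D proteins, ranged from 321 to 357. STK39 differed by -0.13 and -0.15, WNK1 by -0.17 and 0.01, and WNK2, a dim probe set, by -0.65 and at least 0.41. Relatives, regulators and substrates of SGK1 had 11 of 12 genes on the table. Of these 0 were called, with medians of 0.00 over 10 measured and -0.01 over 11. At the shares over all genes, lists this short hold few calls or none, so the counts of 0 are no result about them. MTOR, the catalytic subunit of the complex that activates SGK1, differed by -0.37 and -0.28, FOXO1, a transcription factor that SGK1 inhibits, by -0.33 and -0.30, and AKT1, a related kinase, by 0.38 and 0.06.

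Circadian clock genes were near 0, with medians of 0.06 over 17 measured and 0.08 over 15, and 0 called higher. Over all genes 1.65% and 1.46% were called higher, and 0.721% and 0.711% lower. At such shares a list this short holds few calls or none, so its counts are no result about the clock. CLOCK, which drives PER1 transcription, was the 1 gene called lower, 2.02-fold below control with ultrasound only, and it was 1.12-fold above Sonazoid only in the combination. CRY2, a partner of the PER proteins, differed by 0.28 and at least 0.87 with dim signals, and NFIL3, a repressor linked to the clock, by 0.25 and 0.66.

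**Figure D3:**
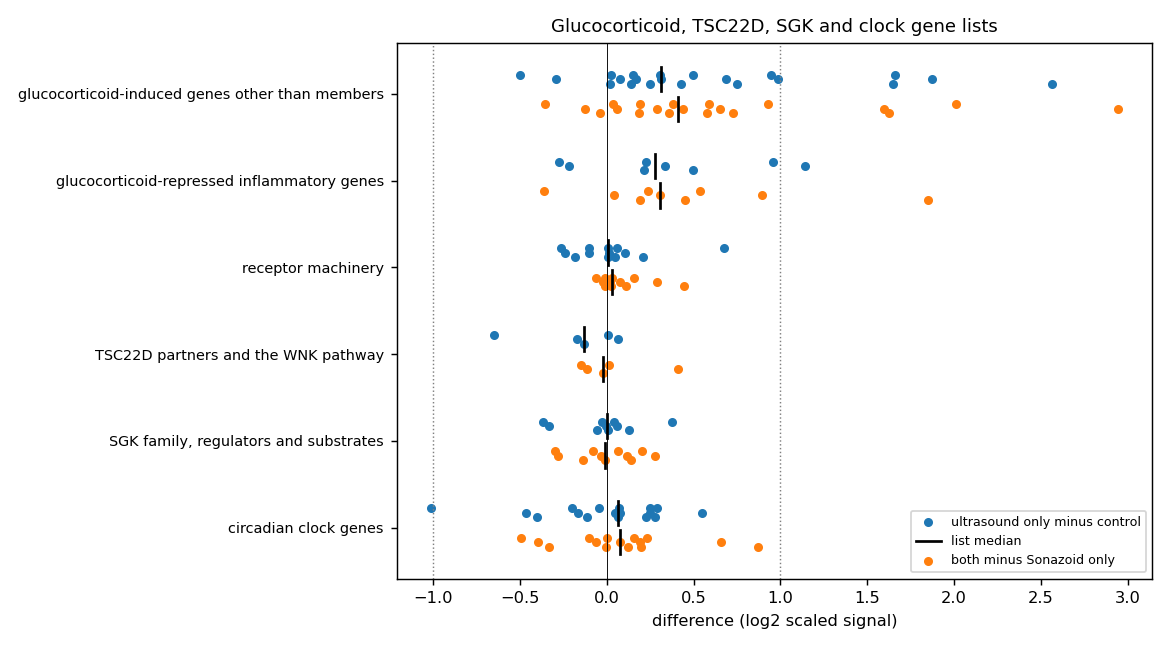
Difference (log2 scaled signal) of each measured gene of the 6 lists, by its brightest probe set, for ultrasound only minus control (blue) and the combination minus Sonazoid only (orange), with black bars at the list medians and dotted lines at 2-fold. Genes past 2-fold on the higher side are in the glucocorticoid-induced and the inflammatory lists, and CLOCK is the one gene past 2-fold on the lower side.

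The genes whose pattern over the 4 arrays was most like that of TSC22D3 were found by the root mean square difference of log2 signals, each centred on its own 4-array mean, among 10622 genes above the floor on all arrays. With 4 points many genes can lie close, and the likeness is a description. KLF6, a zinc finger transcription factor, was nearest (0.10), with signals of 397 in control, 394 under Sonazoid alone, 2852 under ultrasound alone and 2968 after both. RGS2 came next (0.12), then PHLDA1 (0.17), the AP-1 subunit FOS (0.24) and FCAR, the myeloid receptor for IgA (0.28). Their ultrasound differences lay between 4.46-fold and 7.18-fold without Sonazoid and between 4.48-fold and 7.70-fold with it.

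For SGK1 the nearest was GPR183, a receptor for oxysterols (0.08), at 736 in control, 761 under Sonazoid alone, 1380 under ultrasound alone and 1920 after both. The transcription factor EGR3 (0.09), the guanine nucleotide exchange factor RAPGEF2 (0.10), the splicing kinase CLK1 and the endosomal RAB11FIP1 (0.11 and 0.12) followed. Their ultrasound differences were between 1.88-fold and 2.37-fold without Sonazoid and between 1.97-fold and 2.71-fold with it, and no gene was among the nearest of both TSC22D3 and SGK1.

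**Figure D4:**
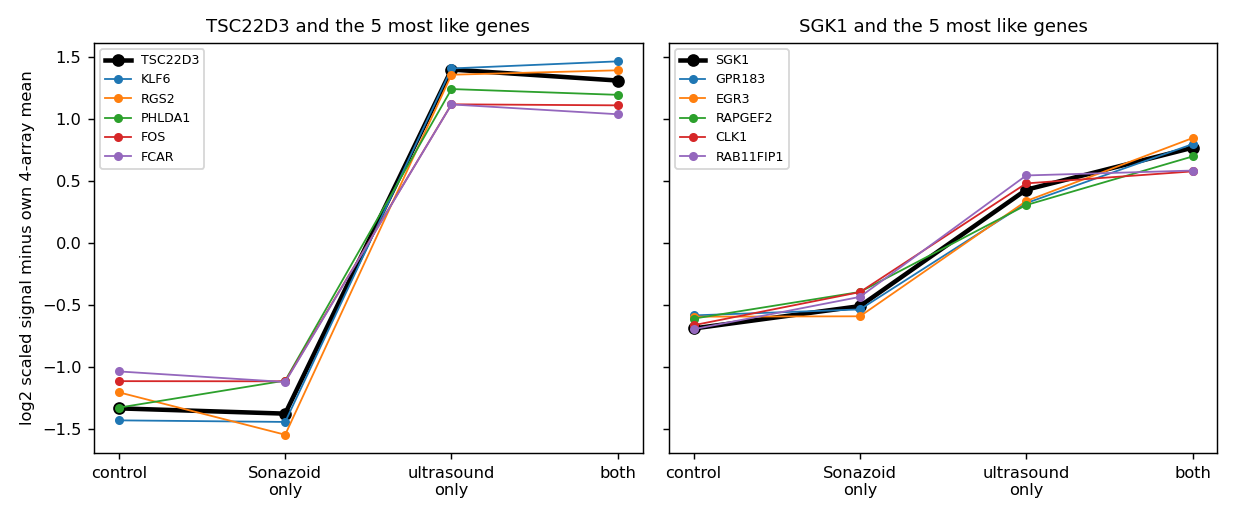
Log2 scaled signal minus its own 4-array mean on each array for TSC22D3 (left) and SGK1 (right), each in black with the 5 genes of most like pattern in colour, 1 probe set per gene. TSC22D3 and its neighbours stay close within each pair of arrays with and without ultrasound, while SGK1 and its 5 neighbours are highest in the combination.

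The cell type on the labels was checked against its markers. Of 12 monocytic markers 11 were on the table, and 10 were above the floor on all 4 arrays. The exception, MPO, stood at 3.75 in control, 28.6 under Sonazoid alone, 20.6 under ultrasound alone and 19.0 after both. The summed signal of the 11 ranged from 36208 to 44557. CTSG, ELANE and LYZ made up most of that sum, and 2 dimmer markers passed 2-fold. CSF1R, a receptor tyrosine kinase of monocytes and macrophages, stood at 32.7 in control, 57.1 under Sonazoid alone, 93.1 under ultrasound alone and 78.9 after both. It was 2.85-fold higher with ultrasound only and 1.38-fold higher in the combination than with Sonazoid only. SPI1, the myeloid transcription factor PU.1, stood at 120, 83.0, 106 and 59.3 on the same arrays, so the combination was 2.03-fold below control. The part of these shifts in the members' differences was not tested. Of the markers of other cells on the table, 0 of 5 T and NK cell, 1 of 3 B cell, 0 of 4 epithelial, 2 of 5 fibroblast and endothelial and 1 of 3 erythroid and platelet markers were above it on all arrays. The summed signal was between 816 and 946 for the fibroblast and endothelial markers, which include PECAM1, also expressed by monocytes, and between 65.8 and 121 for the T and NK cell markers. COL1A1, the other of the 2 fibroblast and endothelial markers above the floor on all arrays, lay between 81.2 and 131. The epithelial keratin KRT8 stood at 18.6, 38.6, 43.2 and 59.2 on the arrays in the same order. The signal near the 3′ end over that near the 5′ end, which reflects RNA integrity and amplification, lay between 1.16 and 1.20 for ACTB and between 0.946 and 1.01 for GAPDH. For the control transcript ISGF3A it was 6.47 in control, 7.52 under Sonazoid alone, 9.21 under ultrasound alone and 7.09 after both, highest on the ultrasound array, and its part in the differences was not tested. The control genes ACTB and GAPDH differed by log2 0.14 and 0.10 between ultrasound only and control, and by 0.05 each between the combination and Sonazoid only. They differed by -0.12 and -0.16 between Sonazoid only and control, and by -0.21 each between the combination and ultrasound only. In bulk RNA a change in the share of cells that express a gene and a change per cell cannot be told apart.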

How the data were processed

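RNA of 4 U937 cultures was measured on 4 Affymetrix arrays, 1 per group, after one-cycle 3′ amplification, per the labels' protocols. The authors deposited linear intensity values, 1 per probe set. How the authors summarised or scaled them is not stated in the labels or the headers. Trimmed means of the arrays (2% removed at each end) differed 1.16-fold, above a limit of 1.1, so arrays were scaled to the common one. The control array was multiplied by 1.04, the Sonazoid array by 0.977, the ultrasound array by 1.07 and the combination array by 0.923. Values were then floored at 23.8 and taken to log2.

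Of 54675 probe sets 41097 had 1 gene symbol, 1801 several and 11777 none, from the platform annotation, with symbols updated through the RefSeq table of GRCh38.p14. Probe sets with several or no symbols and 62 control probe sets were left out. In lists, the brightest probe set stood for a gene. Named were all members, the 3 genes of each list farthest from 0 by the mean of the 2 ultrasound differences, and the 5 genes most like TSC22D3 or SGK1. Other genes were named after their values were seen (DDIT4, FPR1, ZFP36, THBD, PER2, CD163, IL1R2, IL1B, HSD11B1, NR3C2, NRBP1 and the markers MPO, CSF1R, SPI1, KRT8, PECAM1 and COL1A1). Members and lists were chosen with earlier results of these data known.

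The alternatives were no scaling, quantile normalization, a floor at 100, log2(value + 16) without a floor, a 1.5-fold threshold, and other choices of probe set. Python 3.11.15, NumPy 2.4.6 and pandas 2.3.3 were used.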

Additional observations from a re-analysis of the deposited data

Results flagged for a closer look

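For 3 results the ultrasound difference had opposite signs without and with Sonazoid, at least 2-fold apart. Each side is 1 array against 1 array, so the difference was not tested. For the TSC22D4 probe set 208104_s_at the log2 difference was 0.68 without Sonazoid and at least 1.78 lower with it (-1.78), a gap of -2.46 or beyond. The gap was 1.17 for CLOCK, from -1.01 to 0.16, and 1.06 or more for WNK2, from -0.65 to at least 0.41. All 3 had mean signals up to 100, where the gap of 1 probe set in 20 exceeded 1.26 in size.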

How the results depend on the processing

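The 3 higher member probe sets in each ultrasound comparison stayed 3 or became 4 under no scaling, quantile normalization, the floor at 100, the pseudocount of 16 and the 1.5-fold threshold. TSC22D3 differed by log2 2.60 to 2.82 (208763_s_at) and 1.95 to 2.54 (207001_x_at), and SGK1 by 1.08 to 1.64, in the 3 comparisons with ultrasound under the 4 scaling and floor settings and the main one. With the floor at 100 the counts of member probe sets called lower in the combination fell from 1 to 0 against each other group. TSC22D4 208104_s_at exceeded that floor only under ultrasound alone, at 149. Its value in the combination was raised to 100, which left log2 -0.58 against ultrasound only. With its gene-specific probe set TSC22D4 reversed, to 0.11 for the combination against control and 0.094 against ultrasound only. With the values as deposited the median of all probe sets moved by 0.22 for the combination against ultrasound only and by 0.17 against control. Of 17 member differences each, 7 and 4 then turned sign, as did 1 of 17 in each ultrasound comparison, and with the scaled values each of these lay within 0.09 of 0 (log2). Of 377 member differences under all settings 55 moved by more than the spread of their signal range and 2 reversed. With gene-specific probe sets TSC22D3 gave no value. No paired analysis was possible because each group is 1 array, and no array could be left out. The number of arrays limits the precision.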
